A study of Mus musculus with 26 samples.

Results

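The enzymes that make and salvage the building blocks of DNA were followed in 4T1 cells with and without the lncRNA MaTAR25. The 9 genes were Rrm1, Rrm2 and Rrm2b (ribonucleotide reductase), Tyms, Dut, Dctd and Dtymk (the thymidylate branch), and Tk1 and Dck (the salvage kinases). They were chosen by name from the 45318 genes of the count files, and all 9 were found and passed the filter on low counts. 4T1 is a mouse mammary carcinoma line from the BALB/c strain. The control libraries are labelled as wild type, and by the study's methods the control cells had received a guide RNA against Renilla luciferase. KO1 and KO2 are MaTAR25-/- cells in which CRISPR/Cas9 removed the region around the MaTAR25 transcription start site on both alleles, and each is a single-cell clone. The sources used here do not tell whether the control libraries come from 1 clone, nor do the labels say whether libraries of a group are separate cultures, so the tests measure the spread between these libraries. The design asks which transcripts differ when MaTAR25 is lost.

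Cells build deoxynucleotides along a pair of routes. In the de novo route ribonucleotide reductase, made of the large subunit R1 and a small subunit (R2 or p53R2), reduces ribonucleotides, and thymidylate synthase then methylates dUMP to dTMP. In the salvage route kinases phosphorylate deoxynucleosides taken up from outside or released by DNA turnover. Transcripts of R2, thymidylate synthase and thymidine kinase 1 are known to rise as cells enter S phase, whereas p53R2 is known as a p53 target that serves resting cells, DNA repair and mitochondria.

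Polyadenylated RNA was sequenced in 2 control, 3 KO1 and 4 KO2 libraries, with 25367211 to 61110585 counts on genes per library. Levels are given as CPM, counts scaled to a library of 1000000 with TMM library sizes. MaTAR25 itself (annotated as 1200007C13Rik) was at 0.768 and 0.915 CPM in the control libraries and at 0 to 0.307 CPM in the 7 KO libraries, with a log2 fold change of -2.63 (SE 0.82, edgeR adjusted p = 0.0561). Of 15 S phase markers that hold none of the 9 genes (such as Mcm2, Cdc6 and Pcna), 15 were called higher in KO cells. Their summed level was 1057 to 1166 CPM in control, 3176 to 4391 CPM in KO1 and 2920 to 3522 CPM in KO2 libraries. Of 8 epithelial markers 7 were detected in each library (1, Krt5, was at 0), with sums of 3082 to 3219, 2581 to 4103 and 1517 to 3274 CPM. Cdh1 was the 1 epithelial marker called, at 759 to 939 CPM in control and 354 to 669 CPM in KO libraries (log2 fold change -0.65, edgeR adjusted p = 0.0684). The 7 immune markers summed to 3.20 to 4.23 CPM in control, 11.5 to 28.4 CPM in KO1 and 1.98 to 20.4 CPM in KO2 libraries, with 3 to 5 of them at 0 in each. Most of that was Cd68, at 3.17 to 4.19, 11.4 to 28.3 and 1.77 to 19.3 CPM, and Adgre1 was at 0 in all libraries. The 5 endothelial markers summed to at most 2.48 CPM and the 8 fibroblast markers to at most 47.6 CPM in any library, with Col3a1, Dcn, Lum and Thy1 at 0 in all of them. Most of the fibroblast sum was Pdgfra, at 17.7 to 21.8 CPM in control and 11.7 to 46.9 CPM in KO libraries. Col1a1 was the 1 fibroblast marker called. It was at 2.65 to 3.99 CPM in control and 0.0842 to 0.995 CPM in KO libraries (log2 fold change -3.00, edgeR adjusted p = 0.0132). The part of these markers in the results was not tested, and in bulk RNA more cells in a phase and more RNA per cell cannot be told apart. The paper counted phases by BrdU labelling and flow cytometry of control1 and KO1 cells, not of these libraries. It reported more KO cells in G2, and the counts it shows have a smaller share of KO cells in S phase.

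Among the 9 enzymes, 7 rose in KO cells against control cells, 0 fell, and 2 (Dctd and Rrm2b) did not pass the test. Rrm2 rose most, 4.03-fold (95% confidence interval 2.71 to 5.996), followed by Tyms at 2.99-fold and Dut at 2.77-fold. Called means an adjusted p under 0.1, the threshold of the study, in edgeR's quasi-likelihood test. Of the 15023 genes tested, 11.9% were called higher and 10.7% lower by that rule. In 7 of the 9 genes every KO library lay above both control libraries, which held for 16.9% of all genes tested. The median log2 fold change was 1.19 for the 9 genes and 0.06 for all genes tested. The number called fell to 4 without control replicate 1 (Tk1, Dut and Dtymk were lost) and to 5 without control replicate 2 (Tk1 and Dtymk were lost).

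**Figure D1:**
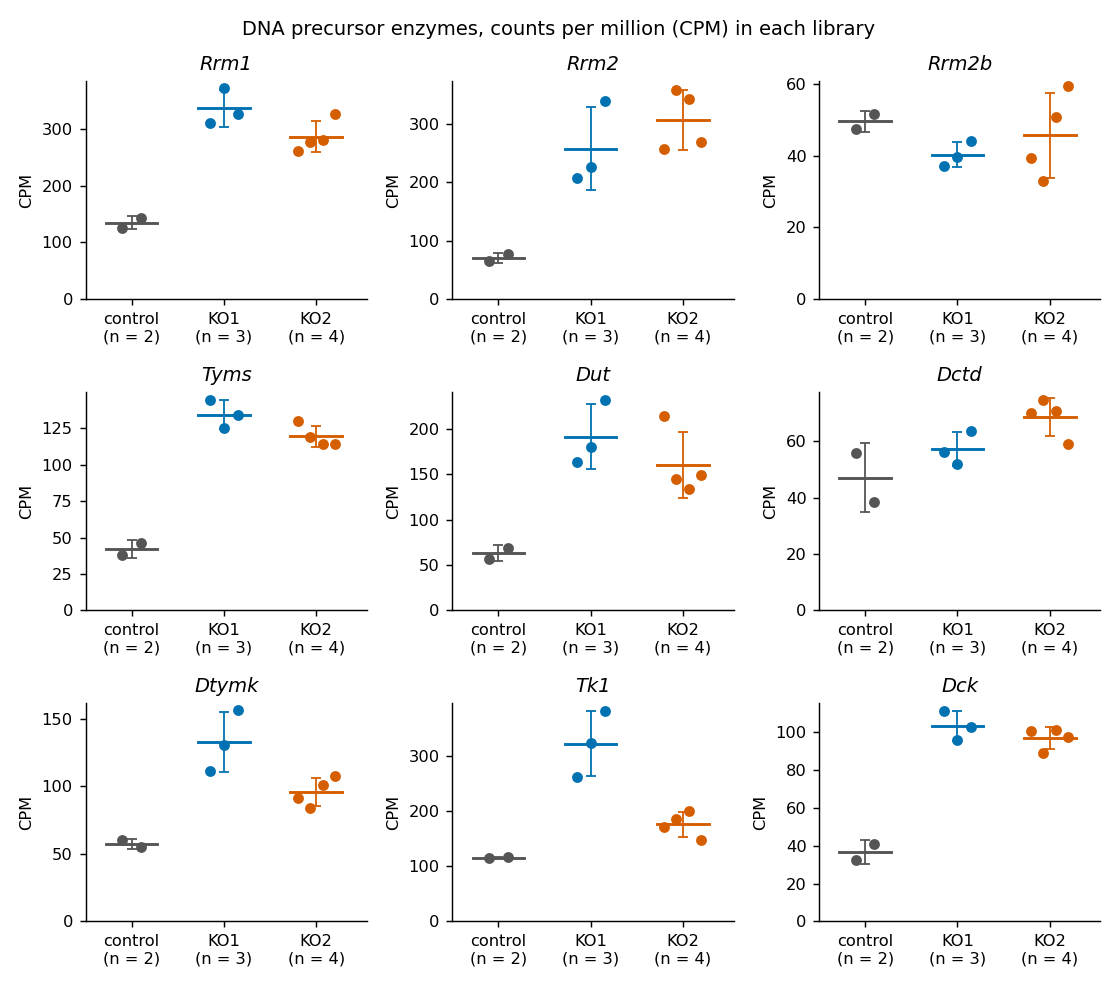
Level of each of the 9 enzymes in CPM (y axes, linear, starting at 0) in each library of the control, KO1 and KO2 groups (x axes), with the mean as a bar and the SD as an error bar. In 7 panels all KO libraries sit above both control libraries, while Rrm2b and Dctd overlap with them, and in the Tk1 panel the KO2 libraries (147 to 200 CPM) sit below the KO1 libraries (263 to 382 CPM).

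Ribonucleotide reductase takes the first committed step, and its subunit genes did not move alike. The bases before the transcription start of Rrm1 and Rrm2 are shown because both genes rose, and those of Tk1 and Dtymk because these genes differed between the clones. Each run holds the 150 bases before the RefSeq start in the direction of the gene, on GRCm38.p6. RefSeq and GENCODE starts differ for some of the genes. The Tk1 window reaches into the GENCODE gene, which starts at 117826092. The last bases of the Rrm2 window lie inside its GENCODE gene, which starts at 24708241. Capitals mark CCAAT (the CCAAT box, or ATTGG where it lies on the other strand) and the E2F-like letters TTCGCGC with the variant TTGGCGC and also TTCCCGC, searched on both strands.
Rrm1 (chr7:102441545-102441694, plus strand): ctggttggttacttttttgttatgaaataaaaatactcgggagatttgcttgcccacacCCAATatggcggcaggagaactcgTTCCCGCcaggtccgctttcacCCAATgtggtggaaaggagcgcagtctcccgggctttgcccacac
Rrm2 (chr12:24708104-24708253, plus strand): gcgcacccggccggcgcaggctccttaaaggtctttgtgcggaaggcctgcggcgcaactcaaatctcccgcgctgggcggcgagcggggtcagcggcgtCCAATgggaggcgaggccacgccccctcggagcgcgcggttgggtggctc
Dtymk (chr1:93801935-93802084, minus strand): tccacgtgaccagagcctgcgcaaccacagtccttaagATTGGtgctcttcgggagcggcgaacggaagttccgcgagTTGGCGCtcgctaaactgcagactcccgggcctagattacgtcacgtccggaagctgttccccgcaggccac
Tk1 (chr11:117826015-117826164, minus strand): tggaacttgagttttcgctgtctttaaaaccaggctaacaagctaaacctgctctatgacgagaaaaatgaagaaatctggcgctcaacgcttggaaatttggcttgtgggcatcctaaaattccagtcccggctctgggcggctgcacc

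In these windows Rrm1 held CCAAT at positions -91 and -45 and TTCCCGC at -67, counted from the RefSeq start. Rrm2 held CCAAT at -50, and Dtymk held TTGGCGC at -72 and CCAAT on the other strand at -112. The Tk1 window, part of which lies inside the GENCODE gene, held none of these letters. Over all 32851 promoter sequences of the table, 24.5% of windows of this length held CCAAT and 4.67% held an E2F-like match. Of the 9 genes 8 had a sequence in the table. Dctd held the same CCAAT before 2 of its 3 listed starts, at -27 and -82, while the sequences of Tyms, Dut and Dck held neither. The Dut window (chr2:125247365-125247514) lies wholly inside its GENCODE gene, which starts at 125247190. The last bases of the Dck window also lie inside its GENCODE gene. These matches describe the letters only.

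Rrm1 (ENSMUSG00000030978.9, chr7:102441695-102469771, GRCm38, plus strand) encodes R1, which carries the catalytic site and the sites that sense nucleotide levels. It was at 126 and 142 CPM in the control libraries, at 310, 372 and 325 CPM in KO1 and at 261, 278, 280 and 326 CPM in KO2. All KO libraries lay above the controls, and KO1 and KO2 overlapped. Against control Rrm1 rose by a log2 fold change of 1.19 (SE 0.17, edgeR adjusted p = 0.00272), with 1.32 in KO1 and 1.09 in KO2.

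Rrm2 (ENSMUSG00000020649.8, chr12:24708241-24714146, plus strand) encodes R2, the radical-bearing small subunit of dividing cells. Its level was 64.7 and 76.9 CPM in control, 207, 225 and 339 CPM in KO1 and 257, 358, 342 and 269 CPM in KO2. The lowest KO library thus stood above both controls, and KO1 replicate 3 lay with the KO2 libraries rather than with the other KO1 libraries. The log2 fold change was 2.01 (SE 0.26, edgeR adjusted p = 0.00181) in all KO cells, 1.86 (SE 0.26) in KO1 and 2.12 (SE 0.25) in KO2.

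Rrm2b (ENSMUSG00000022292.12, chr15:37923952-37961318, minus strand) encodes p53R2, the small subunit that can replace R2 outside S phase. It stood at 47.5 and 51.7 CPM in control, at 37.1, 39.6 and 44.1 CPM in KO1 and at 39.3, 33.0, 50.7 and 59.5 CPM in KO2. All KO1 libraries lay below the controls, while KO2 libraries lay on both sides of them. Of all genes tested, 33.7% had all KO1 libraries below both controls. No change passed the test, with log2 fold changes of -0.19 (95% confidence interval -0.68 to 0.29, edgeR adjusted p = 0.580) in all KO cells, -0.30 in KO1 and -0.12 in KO2. In KO1 the adjusted p was 0.395 with all 9 libraries in the fit and 0.0958 with only control and KO1 libraries. Rrm2b is overlapped on the same strand by the processed pseudogene Gm3362, which had 99 counts in all libraries together against 16357 for Rrm2b.

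Ratios taken inside each library do not depend on how libraries are scaled. Counts of Rrm2 were 1.36 and 1.49 times those of Rrm2b in the control libraries, 5.595, 5.69 and 7.68 times in KO1, and 6.54, 10.9, 6.74 and 4.52 times in KO2. The groups of control and KO libraries did not overlap. The mean log2 ratio was 0.51 ± 0.09 (SD, n = 2) in control and 2.72 ± 0.40 (SD, n = 7) in KO libraries, a difference of 2.21 (p = 0.0278 by a two-sided exact permutation test whose 36 splits allow no smaller value, 0.0857 after adjustment over the 6 ratio tests). Rrm2 also gained on Rrm1, from 0.513 and 0.540 times in control to between 0.606 and 1.29 times in KO libraries. That difference of 0.80 on the log2 scale did not pass (exact permutation p = 0.0556, adjusted p = 0.111). Between the clones neither ratio differed beyond the spread. KO2 minus KO1 was 0.13 for Rrm2 to Rrm2b (exact permutation p = 0.743) and 0.50 for Rrm2 to Rrm1 (exact permutation p = 0.143), where 35 splits allow no p under 0.0286.

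**Figure D2:**
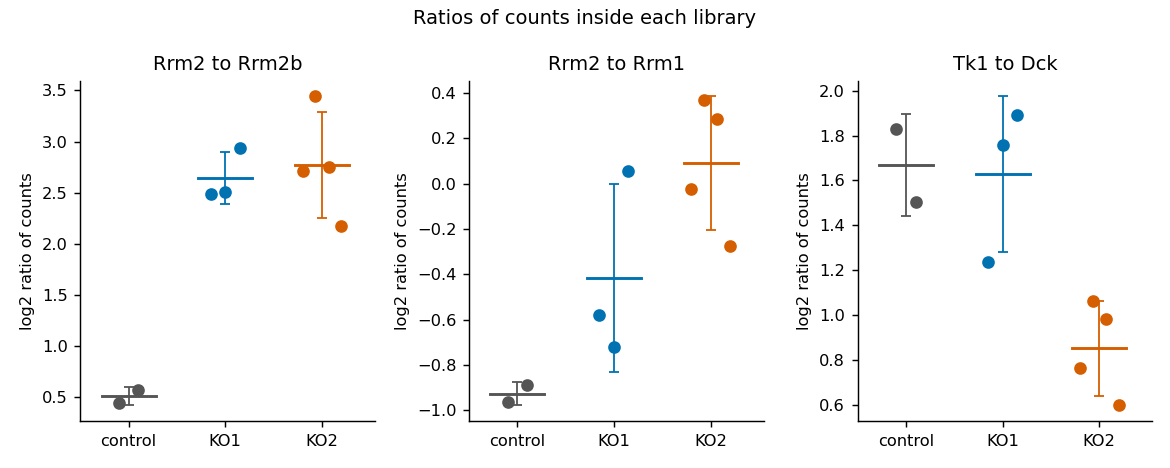
Log2 ratio of counts inside each library (y axes) for Rrm2 to Rrm2b, Rrm2 to Rrm1 and Tk1 to Dck in control, KO1 and KO2 libraries (x axes), with mean bars and SD error bars. The Rrm2 to Rrm2b ratio is near 0.51 in control and between 2.18 and 3.44 in KO libraries, while the Tk1 to Dck ratio is lower in all KO2 libraries than in any KO1 or control library.

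The thymidylate branch supplies dTTP, and 3 of its 4 genes rose. Tyms (ENSMUSG00000025747.9, chr5:30058202-30073617, minus strand), thymidylate synthase, was at 37.8 and 46.4 CPM in control, at 145, 125 and 134 CPM in KO1 and at 130, 119, 115 and 114 CPM in KO2. The 7 KO libraries lay close together and far above both controls. Its log2 fold change was 1.58 (SE 0.16, edgeR adjusted p = 0.00102), with 1.68 in KO1 and 1.51 in KO2.

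Dut (ENSMUSG00000027203.12, chr2:125247190-125258608, plus strand), the dUTPase that keeps uracil out of DNA and yields the substrate of thymidylate synthase, was at 56.6 and 69.1 CPM in control. It was at 163, 180 and 232 CPM in KO1 and at 215, 145, 134 and 149 CPM in KO2. KO1 replicate 3 and KO2 replicate 1 were the highest, and all KO libraries lay above the controls. The log2 fold change was 1.47 (SE 0.24, edgeR adjusted p = 0.00495), with 1.61 in KO1 and 1.36 in KO2, but the adjusted p in all KO cells was 0.106 without control replicate 1.

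Dctd (ENSMUSG00000031562.12, chr8:48099092-48153233, plus strand), the deaminase that turns dCMP into dUMP, was at 55.8 and 38.5 CPM in control, at 56.2, 51.8 and 63.7 CPM in KO1 and at 70.1, 74.8, 70.8 and 59.0 CPM in KO2. The control libraries were far apart, KO1 overlapped with them and KO2 lay above them. Dctd did not pass in all KO cells (log2 fold change 0.44, 95% confidence interval -0.01 to 0.88, edgeR adjusted p = 0.166) or in KO1 (0.28, edgeR adjusted p = 0.336). It was called higher in KO2 (0.54, SE 0.19, edgeR adjusted p = 0.0692), a call that was lost in 6 of the alternatives tried, with an adjusted p of 0.470 without control replicate 2.

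Dtymk (ENSMUSG00000026281.12, chr1:93792576-93801934, minus strand) encodes thymidylate kinase, where the de novo and salvage routes to dTTP meet. It was at 60.0 and 54.8 CPM in control, at 112, 131 and 157 CPM in KO1 and at 91.8, 83.7, 101 and 107 CPM in KO2. The control, KO2 and KO1 groups followed each other without overlap. The log2 fold change was 0.96 (SE 0.24, edgeR adjusted p = 0.0235) in all KO cells, 1.21 in KO1 and 0.74 in KO2.

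The salvage kinases both rose. Tk1 (ENSMUSG00000025574.10, chr11:117815526-117826092, minus strand), the cytosolic thymidine kinase of S phase, was at 115 and 117 CPM in control, at 263, 325 and 382 CPM in KO1 and at 171, 186, 200 and 147 CPM in KO2. All KO libraries lay above the controls, and the KO2 libraries filled the gap between control and KO1. The log2 fold change was 1.05 (SE 0.36, edgeR adjusted p = 0.0772) in all KO cells, 1.48 (SE 0.20, adjusted p = 0.00158) in KO1 and 0.61 (SE 0.18, adjusted p = 0.0413) in KO2. Without control replicate 1 or 2 the adjusted p in all KO cells was 0.354 or 0.349. Afmid overlaps Tk1 on the opposite strand, with 3787 counts against 76071 for Tk1, and the sources used here do not state whether the counting used the strand.

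Dck (ENSMUSG00000029366.10, chr5:88764996-88783281, plus strand), the kinase for deoxycytidine and the purine deoxynucleosides, was at 32.3 and 41.0 CPM in control, at 111, 96.0 and 103 CPM in KO1 and at 101, 89.0, 102 and 97.4 CPM in KO2. The KO libraries were tightly grouped (CV 6.89% over the 7) and clear of the controls. Its log2 fold change was 1.44 (SE 0.16, edgeR adjusted p = 0.00121), with 1.496 in KO1 and 1.41 in KO2.

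Each clone was also set against the control libraries, which both comparisons share. In KO1 7 of the 9 genes were called higher and none lower, where 15.9% of all genes tested were called higher and 15.7% lower, and 7 had all libraries above the controls, where 33.2% of all genes did. In KO2 8 were called higher and none lower, where 16.5% of all genes were called higher and 15% lower, and 8 had all libraries above the controls, where 22.8% of all genes did. The median log2 fold change of the 9 genes was 1.48 in KO1 and 1.09 in KO2, and that of all genes tested was 0.02 and 0.03. The count stayed at 7 in KO1 without any single library, and was 5 in KO2 without control replicate 2, where Tk1, Dctd and Dtymk were lost.

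**Figure D3:**
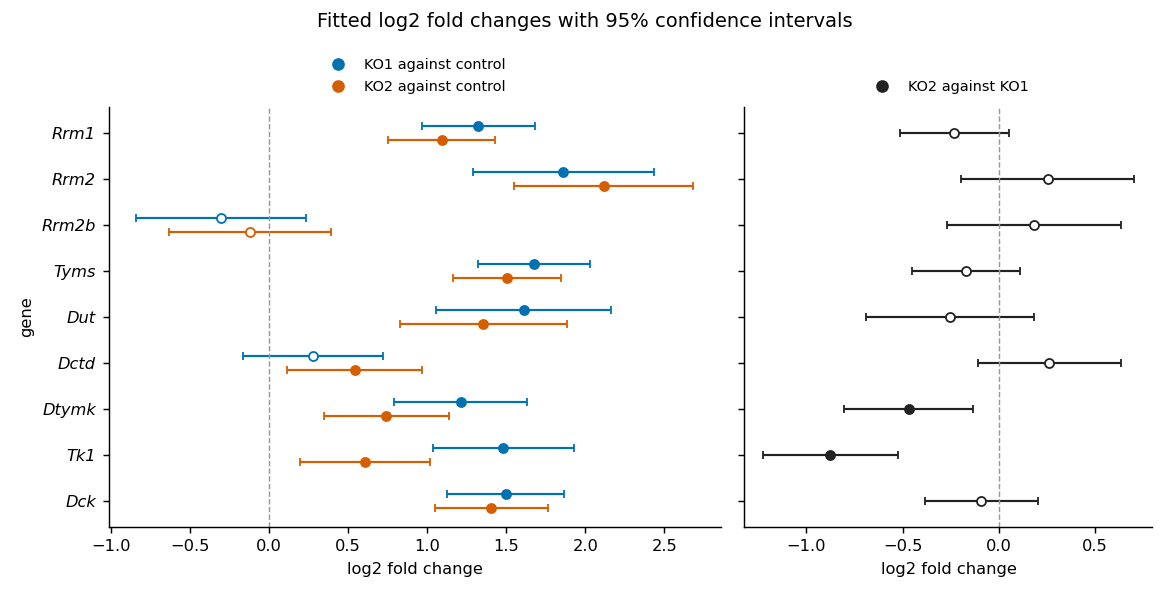
Fitted log2 fold changes (x axes) of the 9 genes (y axis) with 95% confidence intervals, for KO1 and KO2 against control on the left and for KO2 against KO1 on the right. Filled points passed an adjusted p of 0.1 and open points did not, and in the right panel only Tk1 (-0.88) and Dtymk (-0.47) are filled.

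The clones were compared with each other in the same fit, with no control library in the contrast. Tk1 and Dtymk were lower in KO2 than in KO1, and the other 7 genes did not pass. By this rule 9.43% of all genes tested were called lower in KO2 and 10.2% higher, and 12.6% had all KO2 libraries below all KO1 libraries, as these 2 genes did. Tk1 was 0.545-fold of its KO1 level (log2 fold change -0.88, SE 0.16, edgeR adjusted p = 0.0124). Dtymk was 0.723-fold (log2 fold change -0.47, SE 0.15, edgeR adjusted p = 0.0732), and this call was lost without control replicate 1 or 2, KO1 replicate 2 or 3, or KO2 replicate 1 or 2 (adjusted p 0.109 to 0.233). For the other 7 genes the 95% confidence intervals of KO2 minus KO1 reached from -0.69 (Dut) to 0.70 (Rrm2) on the log2 scale, so the fit leaves room for differences of that size.

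The ratio of Tk1 to Dck counts was 3.55 and 2.84 in control, 2.36, 3.38 and 3.71 in KO1, and 1.70, 2.09, 1.97 and 1.51 in KO2. The KO2 libraries were the 4 lowest. KO2 minus KO1 was -0.78 on the log2 scale (p = 0.0286 by a two-sided exact permutation test whose 35 splits allow no smaller value, adjusted p = 0.0857). KO minus control was -0.48 (exact permutation p = 0.278), which did not pass.

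Levels of different genes were compared per kb of their principal transcript. In control cells Tk1 stood first with 80.3 ± 0.9 CPM per kb (SD, n = 2), and Dtymk followed with 57.2 ± 3.6. Rrm1 (33.6), Rrm2 (32.3) and Dut (32.2 CPM per kb) came next and overlapped with each other. Below them stood Dctd with 22.5 CPM per kb, and then Tyms (13.3), Dck (11.9) and Rrm2b (10.9). Dck overlapped with both of its neighbours in that order, and Tyms and Rrm2b did not overlap with each other. In KO1 Tk1 stayed first with 224 ± 41 CPM per kb (SD, n = 3), clear of Dtymk with 133 and Rrm2 with 117. In KO2 Rrm2 was first with 140 ± 23 CPM per kb (SD, n = 4), overlapping with Tk1 at 122. Rrm2b was last in every group, with 8.82 CPM per kb in KO1 and 10.0 in KO2. With lengths from the union of all exons, chosen after seeing the data, Rrm2 or Dut stood first in each group and Rrm2b was still last.

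The levels were next set beside the S phase markers, as CPM of a gene per 1000 CPM of the summed markers. Tyms was at 35.8 to 39.8 in control, 30.5 to 45.5 in KO1 and 36.1 to 40.9 in KO2, so the groups overlapped. Dut and Dck also overlapped between control and KO libraries. Rrm2 was at 61.2 to 65.9 in control, 58.4 to 77.1 in KO1 and 73.0 to 123 in KO2, with all KO2 libraries above the controls, as in 1.68% of all genes tested. For 5 genes all KO libraries lay below both controls on this scale. Since the summed markers themselves rose, the same held for 80.7% of all genes tested, and the count is no result about the 5 genes. Rrm2b was at 44.3 to 44.9 in control and 10.0 to 19.4 in KO, Dctd at 33.0 to 52.8 and 13.4 to 25.6, and Dtymk at 47.0 to 56.8 and 26.1 to 35.6. Tk1 was at 100.005 to 109 in control, 82.7 to 87.0 in KO1 and 48.0 to 63.7 in KO2, and Rrm1 at 119 to 122 in control and 74.1 to 106 in KO.

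Beside the 14 G2/M markers, on the same kind of scale, the order differed. All KO libraries lay above both controls for 5 genes (Rrm1, Rrm2, Tyms, Dut and Dck), as in 2.87% of all genes tested. Rrm1 was at 50.3 to 53.3 in control and 56.4 to 79.2 in KO, and Rrm2 at 25.8 to 28.8 and 48.0 to 91.0. Tk1 was at 43.6 to 45.7 in control, 64.3 to 79.4 in KO1 and 33.5 to 48.3 in KO2, and Dtymk at 20.5 to 23.9, 27.4 to 32.6 and 19.8 to 24.5. For both, KO1 lay above the controls and KO2 overlapped with them. Rrm2b lay below them in all KO libraries, at 18.9 to 19.3 in control and 8.37 to 13.5 in KO, as did 52.2% of all genes tested.

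**Figure D4:**
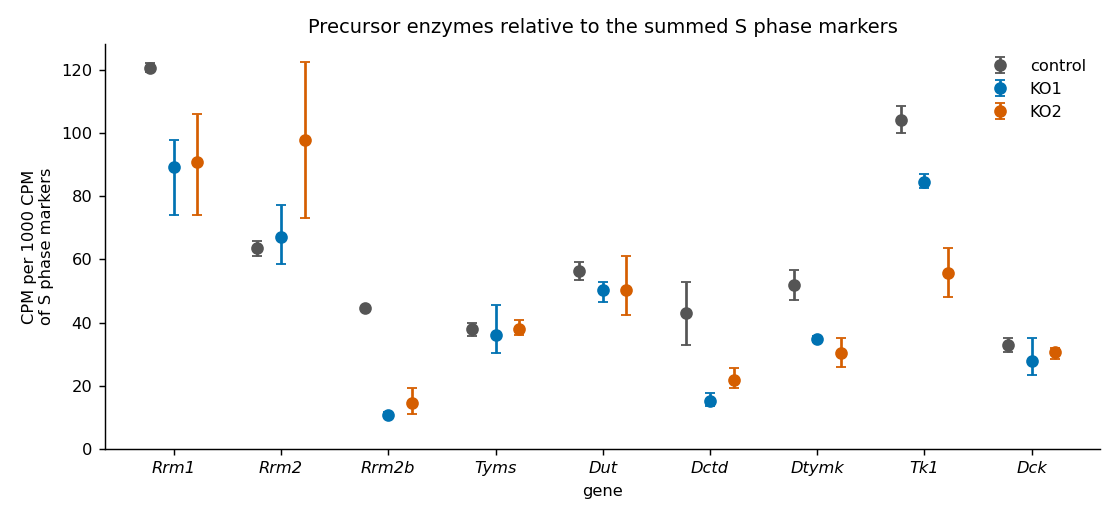
Level of each gene (x axis) in CPM per 1000 CPM of the 15 summed S phase markers (y axis, starting at 0), as the mean of each group with bars from the lowest to the highest library. Tyms, Dut and Dck overlap between control and KO libraries, Rrm2b, Dctd, Dtymk, Tk1 and Rrm1 lie lower in KO libraries (as 80.7% of all genes tested do), and Rrm2 lies higher in KO2.

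Over the 9 libraries the log2 levels of Tyms and Dck ran closest together among the 9 genes (Pearson r = 0.993), and those of Tk1 and Dtymk had r = 0.908. Rrm2b had negative coefficients with all other members, from -0.44 with Tk1 to -0.19 with Dtymk. These values describe libraries that fall into separate groups and share their depth scaling. Among 12019 genes, those most like Rrm2 were Psmd2 (r = 0.995), Oaz1, Erh, Arhgdia and Ccne1, the cyclin of S phase entry (0.986). Those most like Rrm2b were Nhsl1 (0.947), R3hdm2, Tspyl1, Map4k4 and Appl2 (0.920).

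The pathways that feed the 9 enzymes held genes that rose, genes that fell and genes that did not pass. Their counts rested on both control libraries, and the number called without control replicate 1 or 2 is given with each. Of all genes tested, 11.9% were called higher and 10.7% lower. A count near these shares, as in pyrimidine synthesis, is no result about the list. In the folate cycle, which gives thymidylate synthase its methyl group, 4 of 10 genes rose and 2 fell in KO against control (2 or 3 called). Shmt1, a cytosolic supplier of folate carbon units, rose by 1.02 on the log2 scale. Shmt2, its mitochondrial counterpart, was at 0.11 and did not pass. Its clones were not alike, with 376 to 446 CPM in control, 510 to 607 CPM in KO1 and 327 to 421 CPM in KO2.

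In pyrimidine synthesis 2 of 10 genes rose and 1 fell (1 called in both cases). Cad, the multi-domain enzyme that opens the pathway, went from 180 and 196 CPM in control to 467 to 572 CPM in KO1 and 440 to 563 CPM in KO2, a log2 fold change of 1.48 (SE 0.16, edgeR adjusted p = 0.00106). Ctps, which makes CTP, was at 0.15 and did not pass, and Uckl1, a uridine kinase-like gene, fell by 1.03. In purine synthesis 7 of 15 genes rose and none fell (2 or 1 called), led by Gart (1.53) and Pfas (1.18), and Impdh2, at the branch to GTP, rose by 0.54. Among nucleotide kinases 4 of 11 tested rose (1 or 0 called), led by the nucleoside diphosphate kinases Nme1 (1.21) and Nme2 (1.02), which finish the triphosphates.

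Of 14 genes that break down or clean the dNTP pool, 5 rose and none fell (1 called in both cases). Dctpp1, a dCTP pyrophosphatase, went from 19.3 and 20.8 CPM in control to 97.9 to 116 CPM in KO1 and 67.4 to 92.5 CPM in KO2, and its log2 fold change of 2.20 (SE 0.23, edgeR adjusted p = 0.00102) was above that of every one of the 9 enzymes. Nudt1, which clears oxidized purine nucleotides, rose by 1.31. Samhd1, the dNTP hydrolase, was at 0.27 (adjusted p = 0.510) and Cda, the cytidine deaminase, at 0.65 (adjusted p = 0.339), and neither passed. The clones were not alike in Samhd1, at 99.3 to 106 CPM in control, 142 to 154 CPM in KO1 and 74.0 to 131 CPM in KO2.

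In mitochondrial salvage and transport 3 of 8 genes were called lower, none higher and 5 neither (1 called in both cases). The median log2 fold change of the 8 was -0.03, with 4 of them above 0. Those called were the pyrimidine nucleotide carriers Slc25a33 (-2.03) and Slc25a36 (-1.18) and the thymidine kinase of mitochondria, Tk2 (-0.65, edgeR adjusted p = 0.0798). Tk2 was at 27.5 and 28.5 CPM in control, 17.3 to 19.4 CPM in KO1 and 12.5 to 22.4 CPM in KO2, all below the controls. Dguok, the mitochondrial kinase for purine deoxynucleosides, was at -0.26, and Slc29a1, a nucleoside transporter, at 0.53, and neither passed. Slc29a1 was at 47.7 to 54.9 CPM in control, 36.7 to 84.6 CPM in KO1 and 70.4 to 100 CPM in KO2.

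**Figure D5:**
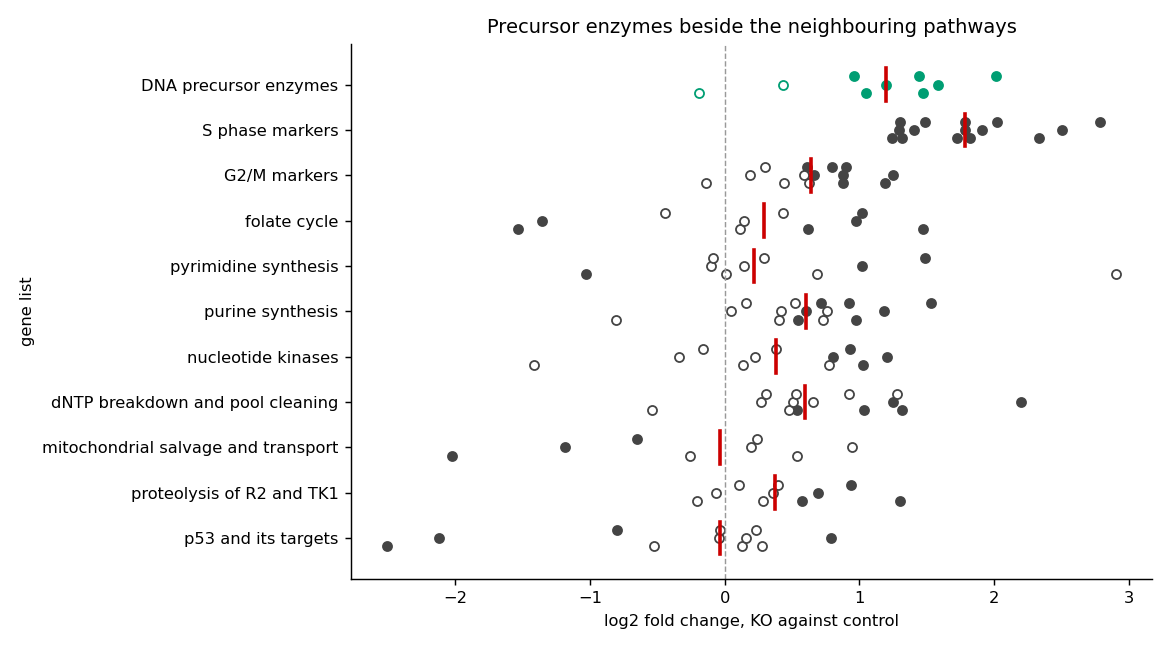
Log2 fold change of KO against control (x axis) for each tested gene of the 9 enzymes (green) and of 10 neighbouring gene lists (y axis), where filled points passed an adjusted p of 0.1, open points did not and red bars mark medians. The medians are 1.19 for the 9 enzymes, 1.78 for the S phase markers, 0.64 for the G2/M markers and -0.03 for mitochondrial salvage and transport.

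Of 10 genes for the proteolysis that removes R2 and thymidine kinase 1 after S phase, 4 rose and none fell (0 called in both cases). Ccnf, the cyclin that targets R2, rose by 1.30 (SE 0.27, edgeR adjusted p = 0.0123), Skp1a by 0.93 and Fzr1, the activator of the anaphase-promoting complex in G1, by 0.57. Among p53 and its targets, the list closest to Rrm2b, 1 of 11 tested genes rose and 3 fell (2 or 1 called). Trp53 itself went from 84.8 and 90.7 CPM in control to 44.9 to 50.7 CPM in KO1 and 48.6 to 56.1 CPM in KO2 (log2 fold change -0.80, SE 0.13, edgeR adjusted p = 0.00461). Sesn2 and Bbc3 fell by 2.502 and 2.12, while Cdkn1a (-0.04, SE 0.83) and Mdm2 (-0.03, SE 0.22) did not pass. Cdkn1a was at 23.1 to 27.8 CPM in control, 2.44 to 20.3 CPM in KO1 and 13.9 to 57.0 CPM in KO2. Mdm2 was at 119 CPM in control, 86.6 to 108 CPM in KO1 and 107 to 152 CPM in KO2. Of 14 G2/M markers 8 rose (1 called in both cases), led by Mki67 (1.25) and Plk1 (1.19), and their summed level was 2509 to 2671 CPM in control, 4084 to 4808 CPM in KO1 and 3936 to 4628 CPM in KO2.

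The chromatin readout of the series was looked up at the same genes. In ChIRP-seq, chromatin bound to MaTAR25 is pulled down with oligos against the RNA, and peaks were called over pooled replicates in 4T1 cells (even, odd and total oligo pools) and in MMTV-Neu-NDL cells (total pool), so no replicate test was possible. Within 10 kb of the gene, 7, 7, 7 and 8 of the 9 genes had a peak in these lists. Of 12546 tested protein-coding genes, 70.4%, 71.2%, 79.3% and 78.0% had one by the same rule, so the share among the 9 genes was near that background. Dtymk had a peak centred 460 to 627 bases inside its start in all 4 lists, ranked 453 of 64607 in the even list, 8906 of 61311 in the odd list, 1795 of 76806 in the total list and 1272 of 70329 in MMTV-Neu-NDL cells. Rrm2 had no peak inside the gene in any list, and neither had Dck. Of tested protein-coding genes, 50.4%, 50%, 57.4% and 56.4% had a peak inside the gene. Within 10 kb Rrm2 had a peak in the even, total and MMTV-Neu-NDL lists and none in the odd list. Whether peaks go with the size of the change was not tested.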

How the data were processed

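Single-end reads of polyA-selected RNA had been aligned by the authors with STAR (GRCm38) and assigned to GENCODE vM5 genes with HTSeq, and the deposited values are raw counts. KO2 replicate 2 lists each gene 3 times, and each was used once. Counts assigned to no gene (33.9 to 37.0% of a library) were left out. Most of them were alignments that were not unique. These made up 24.1% of the control libraries and 25.2 to 27.5% of the KO libraries. The deposited peak scores are the authors' HOMER scores over pooled replicates against Ppib pulldowns on GRCm38.

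Counts were tested with edgeR 4.0.16 (R 4.3.3, TMM, filterByExpr, quasi-likelihood test, Benjamini-Hochberg over all genes tested, threshold 0.1), pooling the 7 KO libraries, and in a 3-group fit for each clone and for KO2 against KO1. The fits were tested on simulated data with independent libraries, the same spread for all genes and no clone effect in the pooled KO group. That check therefore does not cover differences between the clones. Ratios were compared by two-sided exact permutation tests, with a threshold of 0.05 on the permutation p. Levels per kb used principal transcripts of GENCODE vM21. Intervals have a level of 95%.

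The members and gene lists were chosen with earlier results of these data known. Named were the 9 members, rate-limiting or regulatory genes of each list, the 2 called genes with the largest change per list, and the 5 genes most like Rrm2 and Rrm2b. Of 149 listed genes 148 were matched. Alternatives were DESeq2 1.42.0, RLE size factors, other filters, a threshold of 0.05, other groups in the fit, a replicate block, each library left out, and peak windows inside the gene or within 50 kb. Results for some genes of the pathway lists are not reported here.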

Additional observations from a re-analysis of the deposited data

Results flagged for a closer look

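The clones differed from each other in 3 values, each by a test of the difference itself. The log2 fold change of KO2 minus KO1 was -0.88 for Tk1 (edgeR adjusted p = 0.0124), with all 4 KO2 libraries below all 3 KO1 libraries. For Dtymk it was -0.47 (edgeR adjusted p = 0.0732), again with no overlap. The log2 ratio of Tk1 to Dck changed by -0.78 in KO2 (two-sided exact permutation p = 0.0286, adjusted p = 0.0857). This ratio is not separate from the first value, since both hold Tk1. Dck itself did not pass (KO2 minus KO1 -0.09, edgeR adjusted p = 0.687). Each clone is 1 line, so the clone and any other difference between the lines cannot be told apart.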

How the results depend on the processing

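With 2 control libraries, the calls rested on few degrees of freedom, and each of the 9 genes had 783 to 19480 counts per library, so counting error was small. The number of the 9 genes called in KO against control was 4 to 7 over the fits that leave out 1 library, in KO1 7 to 7, in KO2 5 to 8 and in KO2 against KO1 1 to 2. KO2 against KO1 also gave 1 (Tk1) with a threshold of 0.05, with no filter on low counts and with only the groups compared. DESeq2, RLE size factors and a minimum of 10 counts gave 7, 7, 8 and 2, as in the tests reported. Replicate numbers showed no clear pairing of the libraries (correlations of deviations from -0.19 to 0.05 for same-numbered libraries, and not every library was closest to its own number). Groups this small cannot settle whether libraries are paired, and the deviations of the 2 control libraries are mirror images. With the replicate block the counts were 5, 7, 7 and 2, and Tk1 and Dtymk in all KO cells (adjusted p 0.143 and 0.112) and Dctd in KO2 (0.104) were lost. Of the values of single genes, 241 of 252 kept their direction and side of the threshold under these settings, and with 1 library left out 304 of 324 did. Rrm2b in KO2 ranged from -0.27 to 0.0074 over these, turning to the latter without KO2 replicate 2. Over the fits without 1 library the log2 ratio of Rrm2 to Rrm2b ranged from 2.09 to 2.30 and that of Rrm2 to Rrm1 from 0.72 to 0.90 in KO minus control. In KO2 minus KO1 the former ranged from -0.10 to 0.32, and turned without KO2 replicate 2. Tk1 to Dck ranged from -0.97 to -0.65 there, where no p under 0.0667 could be reached. Inside the gene only, 3, 6, 4 and 5 of the 9 genes had a ChIRP peak in the even, odd, total and MMTV-Neu-NDL lists, where 50.4%, 50%, 57.4% and 56.4% of tested protein-coding genes had one, and within 50 kb all 9 did, as 92.4 to 98.4% of those genes. Of the counts for the other lists, 154 of 504 with 1 library left out and 60 of 392 under other settings moved by over 1.5 times. In KO against control these included every pathway list when control replicate 1 or control replicate 2 was left out.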
